A study of Mus musculus with 2 samples.

Results

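ATP-binding cassette (ABC) transporters that move dyes, drugs, conjugates and lipids out of cells were followed in mouse haematopoietic stem and progenitor cells. The 9 genes were Abcb1a, Abcb1b, Abcb4, Abcg2, Abcc1, Abcc4, Abcc5, Abca1 and Abcg1, chosen by name. All 9 had a probe, 12 probes in all, out of 20655 gene symbols measured. The cells were lineage-negative, Sca-1-positive and c-Kit-positive (LSK, the gate that contains stem cells and multipotent progenitors) and had been sorted by flow cytometry. Adult cells came from bone marrow (mice 8 weeks old) and fetal cells from liver at E14.5, each on 1 array. Both samples were wild type and had not been through transplantation. The bone marrow sample was labelled C57BL/6. No strain label was used here for fetal liver, so whether strain also differed was not checked. The comparison sets LSK cells of a fetal blood-forming organ against those of the adult one. Tissue, age and slide all changed together between the arrays and cannot be told apart. With 1 array per group there is no replicate check and no test across samples.

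ABC transporters use ATP hydrolysis to push substrates across membranes. Abcb1a and Abcb1b are the rodent forms of P-glycoprotein, the multidrug pump, and Abcg2 is the breast cancer resistance protein. These pumps expel rhodamine and Hoechst dyes, and the Hoechst-low side population of mouse bone marrow, which is enriched in stem cells, depends on Abcg2. Members of subfamily C export glutathione, glucuronide and nucleotide conjugates, while Abca1 and Abcg1 pass cholesterol to apolipoprotein A-I and to high density lipoprotein.

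Abcb1a, Abcb1b and Abcb4 lie side by side on chromosome 5, and their promoters are shown because 2 of these neighbours, Abcb1b and Abcb4, gave the largest differences among the 8 genes above background. The promoter of Abca1 is shown because the sterol sensor liver X receptor is known to drive this gene. Each sequence runs from 250 bases before to 50 bases after the start of the RefSeq gene (build GRCm38.p6), 5′ to 3′ on the strand of the gene, with matches to the searched motifs in capitals.
Abcb1a, chr5:8566841-8567140, plus strand: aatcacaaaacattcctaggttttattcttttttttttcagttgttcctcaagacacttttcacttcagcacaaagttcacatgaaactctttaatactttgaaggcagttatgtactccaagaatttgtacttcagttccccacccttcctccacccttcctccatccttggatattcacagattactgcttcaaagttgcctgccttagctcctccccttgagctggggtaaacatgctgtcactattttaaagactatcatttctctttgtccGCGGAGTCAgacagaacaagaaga
Abcb1b, chr5:8797897-8798196, plus strand: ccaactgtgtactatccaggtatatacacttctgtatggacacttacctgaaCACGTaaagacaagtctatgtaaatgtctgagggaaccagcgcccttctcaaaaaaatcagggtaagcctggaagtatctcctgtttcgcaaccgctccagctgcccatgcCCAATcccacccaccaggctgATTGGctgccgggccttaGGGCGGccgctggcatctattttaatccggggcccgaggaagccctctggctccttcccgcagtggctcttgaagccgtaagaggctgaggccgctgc
Abcb4, chr5:8893471-8893770, plus strand: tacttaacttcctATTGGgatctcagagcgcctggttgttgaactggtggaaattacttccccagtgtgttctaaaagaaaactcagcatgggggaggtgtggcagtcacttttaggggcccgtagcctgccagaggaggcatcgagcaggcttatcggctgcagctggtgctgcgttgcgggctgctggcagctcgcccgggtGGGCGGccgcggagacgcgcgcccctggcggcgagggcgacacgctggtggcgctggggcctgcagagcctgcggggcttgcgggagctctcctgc
Abca1, chr4:53159846-53160145, minus strand: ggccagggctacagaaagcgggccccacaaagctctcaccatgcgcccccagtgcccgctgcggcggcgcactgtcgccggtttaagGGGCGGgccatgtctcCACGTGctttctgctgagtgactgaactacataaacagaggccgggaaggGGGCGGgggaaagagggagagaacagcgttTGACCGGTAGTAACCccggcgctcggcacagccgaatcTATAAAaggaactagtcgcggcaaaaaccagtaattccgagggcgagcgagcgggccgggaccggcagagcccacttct

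The motifs were searched on both strands by their letters alone. They were the GC box (GGGCGG), the CCAAT box (CCAAT), the TATA box (TATAAA), the E-box (CACGTG), the hypoxia response core (ACGTG, which lies within the E-box), the AP-1 site (TGANTCA), the antioxidant response core (TGACNNNGC) and the paired site of liver X receptor (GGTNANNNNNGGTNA). The Abcb1b window held a GC box, 2 CCAAT boxes and a hypoxia response core. The Abcb4 window held a GC box and a CCAAT box, and the Abcb1a window held an antioxidant response core after the start site as its 1 match. Abca1 had the liver X receptor motif with its first base at position -67, a TATA box at -29, 2 GC boxes and an E-box. Of 32851 promoters of this length, 0.718% held the liver X receptor motif, 35.7% a GC box, 37.4% a CCAAT box, 13.6% a TATA box, 7.15% an E-box, 19.6% the hypoxia core, 12.4% the antioxidant core and 7.81% an AP-1 site. The GC content was 40.3% in the Abcb1a window, 55% in Abcb1b and 64% in Abcb4, against a median of 52.7% over all promoters. In pairwise alignment the 3 neighbouring windows shared 47.8% (Abcb1a and Abcb1b), 47.4% (Abcb1a and Abcb4) and 51.9% (Abcb1b and Abcb4) of aligned positions and gaps. No other promoter pairs were aligned, so whether these shares exceed those of unrelated promoters was not tested. RefSeq windows were at hand for 7 of the 9 genes. A match is a description of the letters and says nothing of binding.

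Fetal liver LSK cells had lower signal than bone marrow LSK cells for the P-glycoprotein gene Abcb1b and for the phospholipid flippase gene Abcb4. The side population pump Abcg2 and the conjugate exporter Abcc4 were lower by less than 2-fold, Abcc1 and Abcg1 differed by less than the technical error, and Abca1 was higher by less than 2-fold. A gene is called here when its signals differ by 2-fold or more. Of the 8 genes above background, 2 were called toward bone marrow and 0 toward fetal liver. Among all 13379 genes detected on either array, 8.12% were called toward bone marrow and 6.70% toward fetal liver. The median difference of the 8 genes was -0.29 against 0.11 over all genes. Differences are on the log2 scale, fetal liver minus bone marrow, with each array scaled to its own 75th percentile; ± gives the technical error computed from the image software's own errors. LSK cells are a mixture, so fewer cells of a type and less RNA per cell cannot be told apart.

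The share of probes well above background was 47.4% in bone marrow and 46.4% in fetal liver, and the 75th percentile of the signal was 179 and 134. All 9 markers of LSK and stem cells were above background on both arrays, among them Kit (signals of 4074 in bone marrow against 3062 in fetal liver) and Ly6a, which encodes Sca-1 (3846 and 594). Scaling by 8 spike-in controls, in place of the percentile, lowers each difference between measured signals by 0.28 and moves the median over all genes from 0.11 to -0.18. Of all called genes, 45.2% were higher in fetal liver under the percentile and 25.2% under spike-in scaling.

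**Figure D1:**
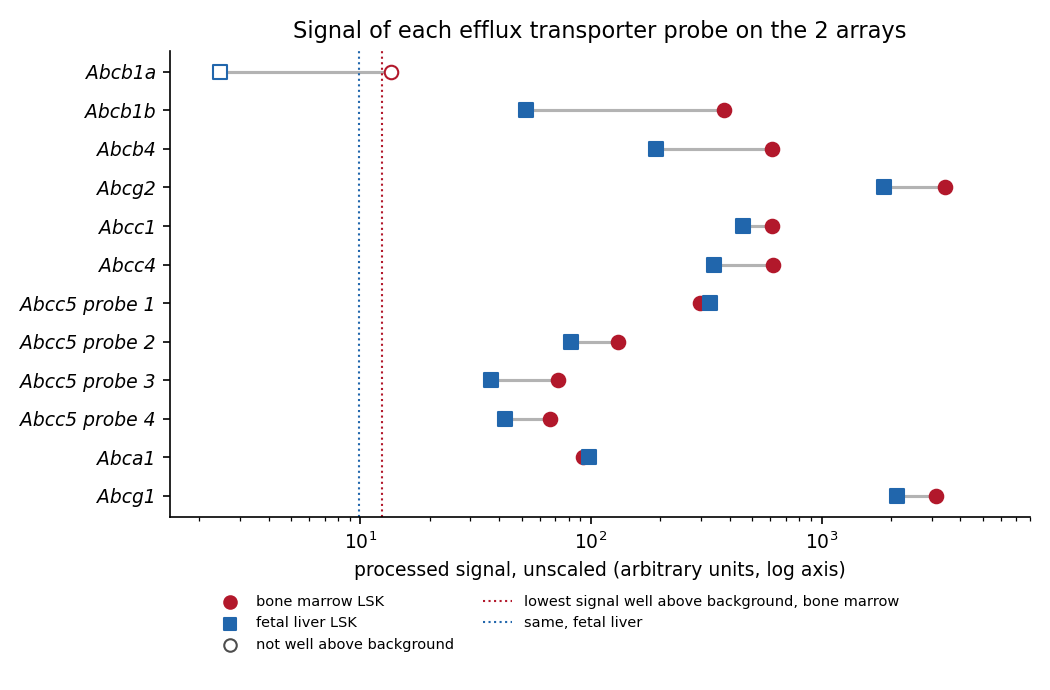
Processed signal (arbitrary units, log axis, not scaled between arrays) of each of the 12 probes, with bone marrow LSK as red circles and fetal liver LSK as blue squares, 1 array each. Open symbols were not well above background and dotted lines mark the lowest signal that was. Abcb1b is the widest apart of the genes above background, at 378 and 52.3.

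Among the P-glycoprotein genes, Abcb1b stood at a signal of 378 in bone marrow against 52.3 in fetal liver cells. Both were well above background, at 140 and 23.0 times the median negative control spot. After scaling, Abcb1b was 5.41-fold higher in bone marrow (-2.44 ± 0.21), a difference 11.4 times the technical error. Of all genes above background, 1.67% lay as far or farther toward bone marrow. The probe of Abcb1a, the other rodent P-glycoprotein, had signals of 13.6 and 2.46, neither of them well above background. Its signal was 5.02 times the negative control in bone marrow and 1.08 times in fetal liver, so no fold is given. These genes are close paralogs and their probes may cross-hybridise, which was not tested.

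Abcb4 encodes a phosphatidylcholine flippase of the bile canaliculus in liver and is the last gene of the cluster. Its signal was 608 in bone marrow and 191 in fetal liver, 2.39-fold higher in bone marrow after scaling (-1.26 ± 0.20). That is 6.14 times the technical error, and 5.79% of all genes lay as far or farther in this direction. Fetal liver is the tissue in which hepatocytes form, and the hepatocyte genes Alb, Ttr, Apoa1 and Ahsg were not well above background on either array. Of 5 hepatocyte markers detected on either array, 2 were called toward bone marrow (Afp, and Fgb as a bound) and 0 toward fetal liver. Of all genes, 8.12% and 6.70% were called in those directions. With normexp background correction 1 of the 5 was called toward bone marrow, against 606 of all 13379 genes. Of the 10 listed, 9 had a probe. The summed level of the list, in multiples of the 75th percentile, was 17.3 in bone marrow and 12.5 in fetal liver, most of it from Afp and Hnf4a.

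The Abcg2 signal was 3447 in bone marrow LSK cells against 1871 in fetal liver. Its difference was -0.47 ± 0.20, 1.38-fold higher in bone marrow and 2.28 times the technical error. Under spike-in scaling it was -0.75. Abcg2 was well above background in both compartments and stayed under 2-fold apart under both scalings.

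In subfamily C, the glutathione conjugate exporter Abcc1 had signals of 611 and 457, at -0.003 ± 0.20 after percentile scaling and -0.29 under spike-in scaling. Abcc4, an exporter of cyclic nucleotides and prostanoids, had signals of 616 in bone marrow against 341 in fetal liver and differed by -0.44 ± 0.20. Its difference was 2.14 times the technical error and under 2-fold.

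Abcc5, an exporter of cyclic nucleotides, had 4 probes and they did not go the same way. Its brightest probe, printed as 10 spots, averaged 298 in bone marrow, 327 in fetal liver, and was higher in fetal liver (0.55 ± 0.20). The 10 spots ran from 280 to 328 in bone marrow, with a median of 297, and from 309 to 347 in fetal liver, with a median of 328. The second probe had signals of 131 and 81.8 and lay at -0.26 ± 0.21. The next had signals of 72.0 and 36.8 and lay at -0.55 ± 0.23, and the last had 66.7 and 42.4 and lay at -0.24 ± 0.22. The first and the last of these probes name 1 RefSeq transcript of Abcc5 and the other 2 name another, and which transcripts each probe detects was not tested. The mean over the probes was -0.12, and no direction is given for the gene.

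**Figure D2:**
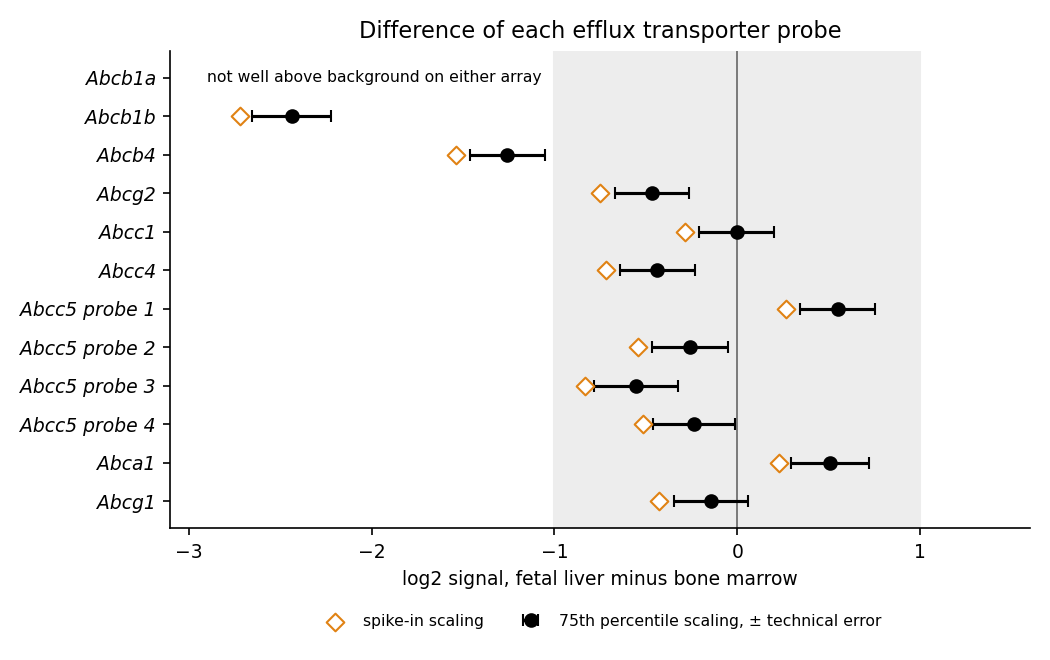
Log2 difference in signal, fetal liver minus bone marrow, of each probe. Filled circles are scaled to the 75th percentile with the technical error as bars, open diamonds are scaled to the spike-in controls, and grey marks differences under 2-fold. Abcb1b at -2.44 and Abcb4 at -1.26 lie outside the grey band, and the brightest Abcc5 probe, at 0.55, stands on the other side of zero from the other 3.

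Of the sterol exporters, Abca1 had signals of 92.4 in bone marrow against 98.5 in fetal liver. After scaling it was 1.42-fold higher in fetal liver (0.51 ± 0.21), 2.40 times the technical error, and 0.23 under spike-in scaling. Abcg1, which passes cholesterol on to lipoprotein particles, had signals of 3142 and 2131 and differed by -0.14 ± 0.20, within the error. Under spike-in scaling Abcg1 was at -0.43, beyond that error. Neither gene reached 2-fold under either scaling. Macrophages, which also carry both genes, had 1 of 7 measured markers called toward fetal liver (Fcgr1) and 1 toward bone marrow (Vcam1). Of all genes, 6.70% and 8.12% were called in those directions. Fcgr1 and Vcam1 were both bounds, from genes above background on 1 array. With normexp background correction 0 of the 7 were called either way, against 379 and 606 of all 13379 genes. The summed level of the macrophage list was 28.3 in bone marrow and 34.7 in fetal liver, of which all but 0.745 and 0.920 came from Csf1r. C1qa and Mrc1 were dim on both arrays, and the part of macrophages in these values was not tested.

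**Figure D3:**
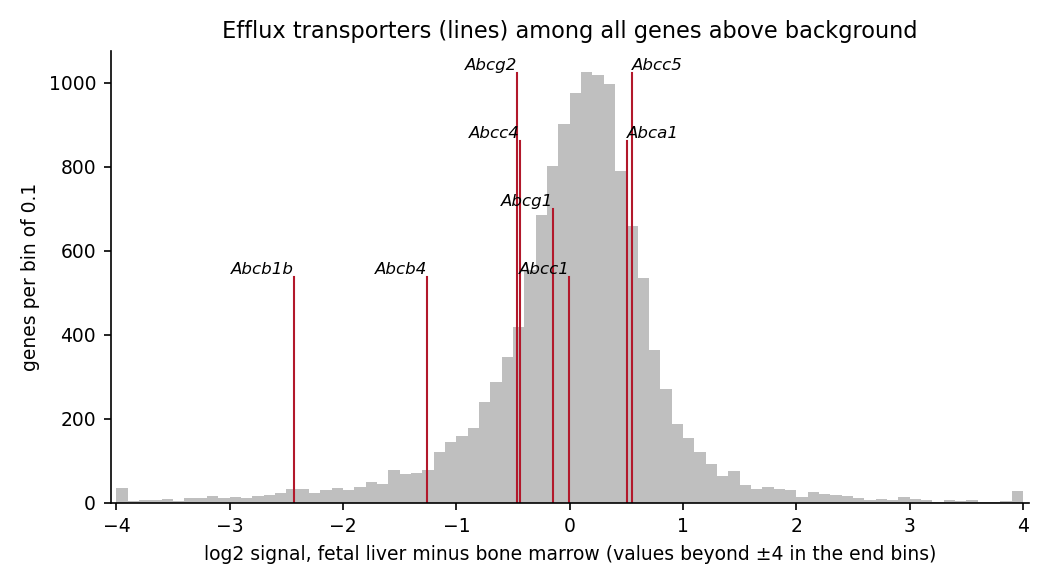
Histogram of the log2 difference, fetal liver minus bone marrow, over 13379 genes detected on either array, in bins of 0.1. Red lines mark the 8 transporter genes above background; line height has no meaning. Abcb1b (-2.44) and Abcb4 (-1.26) lie in the left tail and the other 6 lie between -0.47 and 0.55.

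Of the other 42 genes of the ABC family with a probe, 24 were detected on either array. Called were 2 toward fetal liver and 2 toward bone marrow, with a median of 0.15, and these shares were close to the 6.70% and 8.12% of all genes called in those directions. The mitochondrial and lysosomal transporters held both fetal liver genes among 5 measured. They were Abcb9, a lysosomal peptide transporter (signals of 290 in bone marrow against 485 in fetal liver, 1.16 ± 0.20), and Abcb6, a porphyrin transporter (178 and 270, 1.02 ± 0.21). Both were under 2-fold with spike-in scaling, at 0.88 and 0.74, and with normexp background correction, at 0.99 and 0.86. The peptide loading transporter genes of antigen presentation were the pair higher in bone marrow, Tap1 at -2.13 ± 0.21 and Tap2 at -2.04 ± 0.20.

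None of the other multidrug and conjugate transporters was at least 2-fold apart, and 3 of 9 were above background. Abcc3, an exporter of glucuronides, came nearest at -0.99 ± 0.22 and is named because of that, with -1.28 under spike-in scaling. The bile acid and canalicular pumps Abcb11 and Abcc2, named as the liver pumps of the list, were not well above background on either array. Of the 18 lipid transporters with a probe 7 were above background and 0 were at least 2-fold apart, as was so for 3 peroxisomal transporters and for 4 ATP-binding proteins that do not transport. Of all genes, 14.8% were at least 2-fold apart in either direction.

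**Figure D4:**
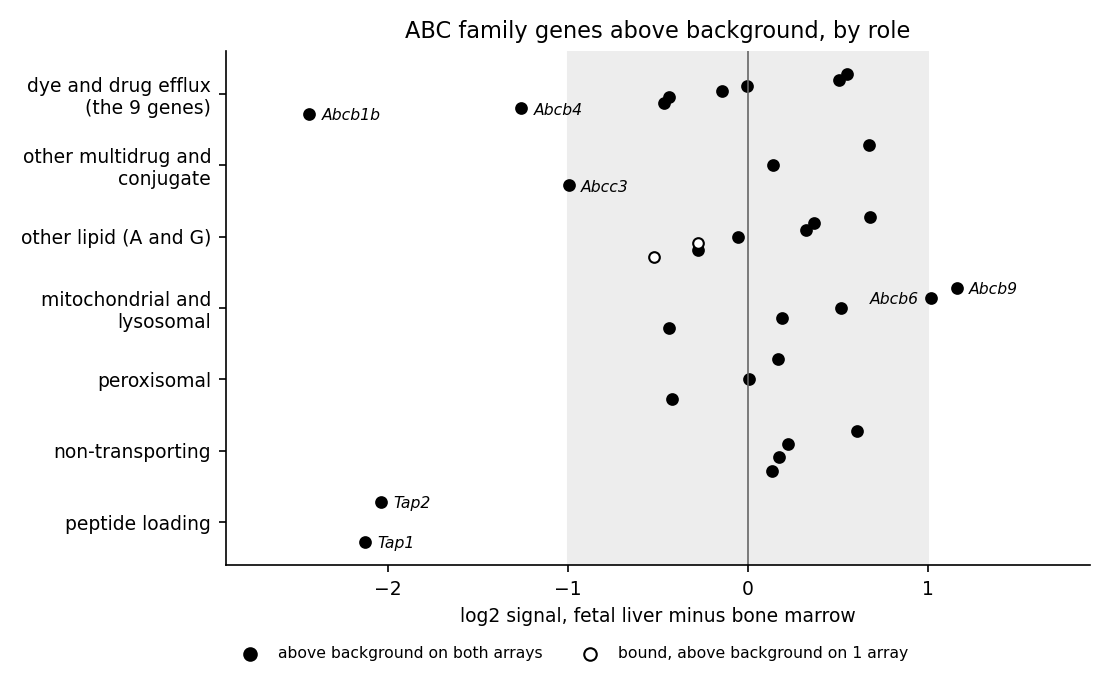
Log2 difference, fetal liver minus bone marrow, of ABC family genes detected on either array, grouped by role, with grey marking differences under 2-fold. Each point is 1 gene and open points are bounds from genes above background on 1 array. Abcb1b and Abcb4 stand with Tap1 and Tap2 on the bone marrow side, and Abcb9 and Abcb6 lie just past 2-fold on the fetal liver side.

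Regulators of efflux transporter genes, such as liver X and aryl hydrocarbon receptors and Nrf2, showed no 2-fold difference. Of 19 measured genes 0 were at least 2-fold apart in either direction, against 14.8% of all genes. The range was -0.64 to 0.77 and the median 0.26. The lowest was Srebf2, a driver of sterol synthesis genes, whose other probe was at -1.55. Of the liver X receptor targets outside the 9 genes, 10 were measured. Apoc1, an apolipoprotein, was 12.4-fold higher in fetal liver (signals of 151 and 1404), and Mylip, a ligase that degrades the low density lipoprotein receptor, was 2.12-fold higher in bone marrow (592 and 209), or -0.96 under normexp. The median of that list was 0.16.

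Genes of sterol uptake, storage and lipoprotein handling lay toward bone marrow, at a median of -0.98. Of 11 measured members 5 were called toward bone marrow and 0 toward fetal liver, against 8.12% and 6.70% of all genes. Vldlr, a lipoprotein receptor, had signals of 1792 and 240 (-2.49 ± 0.20), and its other probe was at -1.16. Insig1, which retains the sterol sensor in the endoplasmic reticulum, had signals of 437 and 88.3 (-1.89 ± 0.21). Nceh1, a cholesterol ester hydrolase, was at -1.16, and Soat1, which esterifies cholesterol, was at -1.07. With the background corrected by normexp, 3 of the 11 were called toward bone marrow and the median was -0.52. Of all 13379 genes, 606 were called toward bone marrow under normexp.

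Position is another feature that the choice of genes did not use. The 5 protein-coding genes on each side of the Abcb1a, Abcb1b and Abcb4 cluster were examined after the values of the cluster were seen. Of these 10 genes 9 were detected on either array, and 5 of the 9 were called toward bone marrow and 0 toward fetal liver, where 8.12% and 6.70% of all genes were. Tmem243, a membrane protein gene, had signals of 104 in bone marrow against 14.1 in fetal liver (-2.47 ± 0.32). Adam22, a receptor of the disintegrin family, had signals of 72.3 and 17.1 (-1.66 ± 0.27).

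Rundc3b was at -1.24 ± 0.26, the mitochondrial carrier gene Slc25a40 at -1.06 ± 0.22 and Dmtf1, a cyclin D-binding transcription factor, at -1.02 ± 0.21. Dbf4, the activator of a replication kinase, lay at 0.17 ± 0.21 and the carnitine acyltransferase gene Crot at 0.07 ± 0.20. Sri, a calcium-binding protein gene, lay at 0.06 ± 0.20, and all of these were within the technical error. Under spike-in scaling Dbf4 was at -0.11, Crot at -0.21 and Sri at -0.23. Elapor2 was above background in bone marrow only, at least 1.26-fold higher, and Grm3 was dim on both arrays. Farther out, from the sixth to the fifteenth gene on each side, 8 genes were measured, of which 0 were called toward bone marrow and 4 toward fetal liver, all 4 beyond Grm3 (Speer1, Gm6460, 4933402N22Rik and Speer3, from 1.04 to 1.38, with near-identical relatives that can share probe signal). With spike-in scaling, 1 of the 8 was called toward bone marrow, Sema3d at -1.27, and 2 toward fetal liver, with Speer1 at 0.76 and Gm6460 at 0.82. The 5 called flanking genes had low signals in fetal liver, from 14.1 to 50.7, all of them above background. Under normexp background correction, which adds an offset of 50 to every signal, 0 of the 9 were at least 2-fold apart toward bone marrow. Of all 13379 genes, 606 were so under normexp. Abcb1b and Abcb4 remained past 2-fold toward bone marrow at -1.67 and -1.11.

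**Figure D5:**
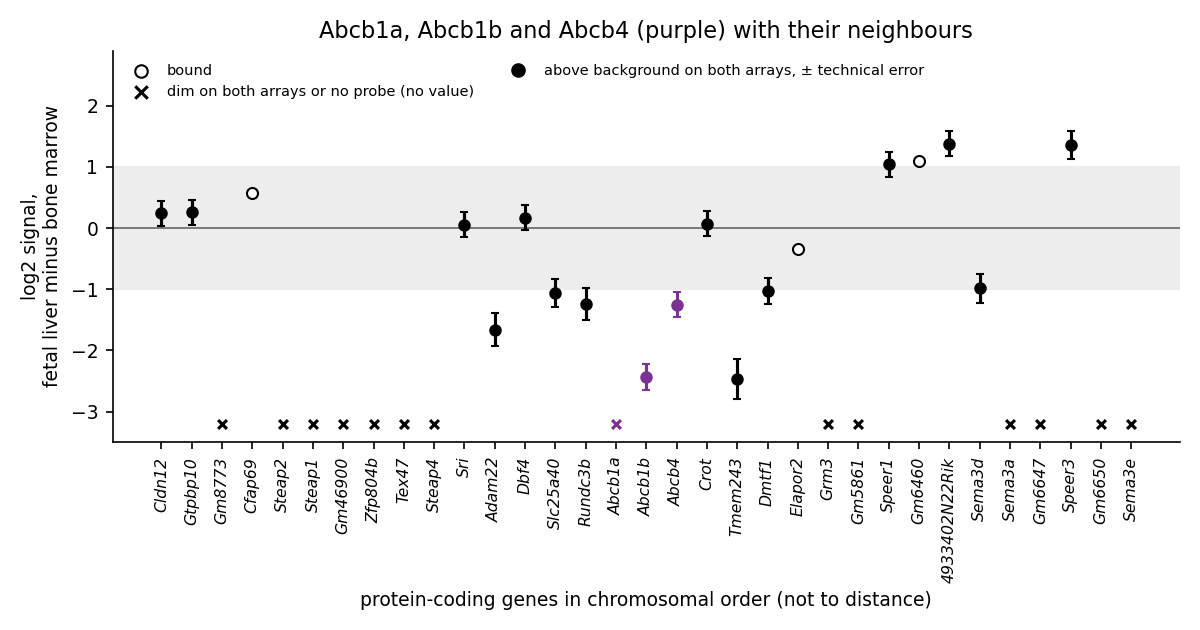
Log2 difference, fetal liver minus bone marrow, of protein-coding genes in their order along chromosome 5 (equal steps, not distances), with the Abcb cluster in purple and 15 genes on each side. Bars are the technical error, open circles are bounds, crosses have no value, and grey marks differences under 2-fold. Values under -1 run from Adam22 to Dmtf1 with Dbf4 and Crot near 0 between them.

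Markers of other cell types were read beside these values. Of 8 neutrophil markers measured, 5 were called toward bone marrow, the direction of Abcb1b and Abcb4, and 0 toward fetal liver. Of all genes, 8.12% were called toward bone marrow and 6.70% toward fetal liver. Each count here, except those under normexp, is to be read against these shares. The 5 included the granule protein genes Ngp at -3.67 ± 0.33 and Lcn2 at -2.47 ± 0.21. Retnlg was above background in bone marrow alone, where its level was at least 13.5-fold that in fetal liver. The summed level of the list was 134 in bone marrow and 111 in fetal liver, most of it from S100a8 and S100a9, which differed by 0.15 and -0.26, and Mmp9 was dim on both arrays. Of 8 erythroid markers 5 were called toward fetal liver and 0 toward bone marrow, with summed levels of 122 and 831, or 26.9 and 76.8 without the haemoglobin gene Hbb-bt. Of 7 endothelial markers, 3 were called toward fetal liver (Plvap, Tek and Cdh5) and 0 toward bone marrow. Cdh5 was a bound, above background in fetal liver alone. Pecam1 was the 1 marker of the 7 that went the other way, at -0.84, and at -1.12 under spike-in scaling. The summed level of the list was 43.7 in bone marrow and 66.9 in fetal liver, or 2.60 and 4.27 without Kdr. Lyve1 was dim on both arrays. Under normexp 4 neutrophil markers and 1 hepatocyte marker were called toward bone marrow. Called toward fetal liver were 5 erythroid markers and 1 endothelial marker, and 0 macrophage markers were called either way. Over all 13379 genes, 606 were called toward bone marrow and 379 toward fetal liver under normexp. The part of these cell types in the transporter values was not tested. Of the LSK and stem cell markers, Ly6a was the 1 gene of 9 at least 2-fold apart by its brightest probe, at -2.28. Kit differed by 0.005, Slamf1 by 0.73, Procr by -0.32 and Flt3 by -0.89. The other Flt3 probe was at -1.14, and under spike-in scaling Flt3 was at -1.17.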

How the data were processed

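RNA of sorted LSK cells (20 ng per sample, with spike-in controls, Cy3) was hybridised to 1 single-colour Agilent array per group, per the labels' protocols. Per the file headers, the deposited intensity values come from the software Agilent Feature Extraction (version 10.7.1.1), with background subtracted within each array and no scaling between arrays. The deposited series table holds a ratio of processed signal to a constant of each array (178.6 and 133.9), which matched within 0.1% for 99.99% of probes printed once. These constants lie close to the 75th percentiles used here, 178.9 and 134.0. How the authors set them is not stated in the labels.

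Outlier spots (137 in bone marrow, 122 in fetal liver) were left out, no spot was saturated, and spots of a probe were averaged. Values are log2 signal minus the log2 75th percentile over 55664 probes. Symbols came from RefSeq (GRCm38.p6) by accession, for 27226 probes, with names and gene order used only, since the array design is on mm9. A gene took its brightest probe. A gene above background on 1 array has a bound against the higher of its own dim signal and the lowest signal well above background (12.4 in bone marrow, 9.82 in fetal liver). The technical error combines the software's signal errors of both arrays. On 176 probes of 10 spots, the median SD of the difference between single spots was 0.08.

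Precision is limited by the number of arrays, and no p-value is given; genes were counted at 2-fold or more. The steps were tested on simulated data, with changes well past 2-fold in genes above background on both arrays. Calls near 2-fold and changes in dim genes were not covered by it. Named were all 9 genes, and from each other pathway list up to 4 genes with the largest difference of at least 2-fold; genes outside this rule are named as counts, neighbours or markers, and some listed genes are not reported here. Members and lists were chosen with earlier results of these data known. The 8 alternatives covered scaling, background, dim probes, probe choice and the deposited table. Normexp (limma 3.58.1, offset 50) was run on the median spot signal, a choice made after seeing the files. Python 3.11.15, pandas 2.3.3 and biopython 1.88 were used.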

Additional observations from a re-analysis of the deposited data

How the results depend on the processing

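Abcb1b and Abcb4 stayed past 2-fold toward bone marrow under all 8 alternatives, from -2.72 to -1.67 and from -1.54 to -1.11. Each has 1 probe, above background on both arrays, so the settings for dim probes and probe choice could not change its value. The deposited table is scaled almost as in the main setting and gave -2.44 and -1.26. None of the other 6 measured genes reached 2-fold under any alternative. Abcg2 ran from -0.75 to -0.46, Abcc4 from -0.72 to -0.38, Abcg1 from -0.43 to -0.14 and Abca1 from 0.23 to 0.51, each with 1 sign throughout. Abcc1 ran from -0.29 to 0.01 and Abcc5 from -0.12 to 0.55, both crossing zero, Abcc5 with the mean over its probes. The median of the 8 genes was -0.57 under spike-in scaling, by the shift that scaling gives each gene. Without the filter on dim probes it was -0.44 over 9 genes, with 3 called toward bone marrow, the added one being Abcb1a, a probe near background. Other ABC family genes called toward fetal liver numbered 0 under spike-in scaling and 0 under normexp. The flanking genes of the Abcb cluster higher in bone marrow numbered 0 under normexp. Over all genes, those called toward fetal liver numbered 896, with 542 under spike-in scaling, 1676 without the filter on dim probes and 379 under normexp. Those higher in bone marrow numbered 1086, with 1611 under spike-in scaling, 1646 without the filter and 606 under normexp. Normexp was run with an offset of 50 added to every signal, which narrows folds, most of all those of dim genes. How much of the fall in counts this gave was not tested. Signal near background limits Abcb1a, which has no value. With 1 array per group no array could be left out. No paired analysis was possible because each group has 1 sample.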
